A study of Homo sapiens with 12 samples.

Results

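The genes of the histone variants macroH2A, H2A.Z, H2A.X and H3.3, together with those of the chaperones ATRX, DAXX, ASF1A and ASF1B, were followed on Illumina bead arrays in HCT116 cells, a human colorectal carcinoma line. The members were all probes whose symbol in the platform's probe annotation was MACROH2A1, MACROH2A2, H2AZ1, H2AX, H3-3A, H3-3B, ATRX, DAXX, ASF1A or ASF1B, which gave 16 of 47323 probes for the 10 genes. Each probe is shown separately. The 4 groups held 3 arrays each. Wip1SH+ATMi cells carried a short hairpin RNA against Wip1 and received an ATM inhibitor at 10 µM for 3 days with daily renewal, Wip1SH cells carried the hairpin without the inhibitor, WT+ATMi cells were parental cells given the inhibitor, and WT cells were parental and untreated. Wip1, the product of PPM1D, is a phosphatase that acts on ATM, p53 and the phosphorylated form of H2A.X, and ATM is a kinase activated by DNA breaks. None of the 4 groups carries a control hairpin, the sample labels name no vehicle, and they do not say whether the depleted line is 1 clone.

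Histone variants replace the canonical histones at particular sites and times. MacroH2A carries a large globular domain on an H2A-like body and is associated with silent chromatin, including that of the inactive X chromosome, and H2A.Z sits beside transcription start sites. H2A.X is phosphorylated by ATM around DNA breaks, where Wip1 removes the mark. H3.3 is put in place independently of DNA replication. DAXX with the remodeller ATRX does so at telomeres and repeats, and the HIRA complex at active genes. ASF1A and ASF1B hand H3 and H4 dimers to the HIRA complex and to the replication-linked assembly factor CAF-1, and ASF1B is the paralogue known to follow proliferation.

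DAXX had no entry among the RefSeq promoters used, though it was called lower in Wip1SH cells than in WT. The promoters below are shown because ASF1B, H2AZ1 and H3-3B were the members with a single start site there that were called lower in that comparison. MACROH2A2 is shown because it was, like ASF1B, called higher with the inhibitor in both lines. Each runs 5′ to 3′ from 250 bases before the start site to 50 bases from it (RefSeq, GRCh38.p14), at chr19:14136540-14136839 on the minus strand for ASF1B, chr4:99950226-99950525 on the minus strand for H2AZ1, chr17:75779730-75780029 on the minus strand for H3-3B and chr10:70052596-70052895 on the plus strand for MACROH2A2. Capitals mark every match, on either strand, to the CCAAT box (CCAAT), the cell cycle homology region (CHR, TTTGAA), the E2F site (TTTCGCGC or TTTGGCGC) and the TATA box (TATAAA).
ASF1B: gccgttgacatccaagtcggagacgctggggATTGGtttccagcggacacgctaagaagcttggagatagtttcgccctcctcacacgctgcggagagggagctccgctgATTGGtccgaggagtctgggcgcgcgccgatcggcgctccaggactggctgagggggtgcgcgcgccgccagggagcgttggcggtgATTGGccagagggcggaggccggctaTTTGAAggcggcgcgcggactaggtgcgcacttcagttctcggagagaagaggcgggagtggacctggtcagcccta
H2AZ1: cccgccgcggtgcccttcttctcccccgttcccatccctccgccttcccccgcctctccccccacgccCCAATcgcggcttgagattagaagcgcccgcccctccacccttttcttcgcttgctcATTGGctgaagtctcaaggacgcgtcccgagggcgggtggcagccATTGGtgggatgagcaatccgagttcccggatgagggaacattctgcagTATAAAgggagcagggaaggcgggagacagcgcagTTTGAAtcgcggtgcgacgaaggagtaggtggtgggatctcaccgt
H3-3B: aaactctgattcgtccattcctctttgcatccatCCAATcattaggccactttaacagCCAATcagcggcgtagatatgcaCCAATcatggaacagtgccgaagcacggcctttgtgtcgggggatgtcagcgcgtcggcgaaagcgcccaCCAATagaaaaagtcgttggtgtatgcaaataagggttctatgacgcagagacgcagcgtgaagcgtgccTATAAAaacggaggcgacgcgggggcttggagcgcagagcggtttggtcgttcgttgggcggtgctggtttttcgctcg
MACROH2A2: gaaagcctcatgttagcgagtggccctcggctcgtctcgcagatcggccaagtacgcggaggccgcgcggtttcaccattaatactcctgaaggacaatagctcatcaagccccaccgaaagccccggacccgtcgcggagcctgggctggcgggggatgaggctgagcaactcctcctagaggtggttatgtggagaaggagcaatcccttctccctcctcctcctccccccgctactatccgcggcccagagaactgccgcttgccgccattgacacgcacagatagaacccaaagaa

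ASF1B held 3 CCAAT boxes and 1 CHR, H2AZ1 held 3 CCAAT boxes, 1 TATA box and 1 CHR, and H3-3B held 4 CCAAT boxes and 1 TATA box. None of these letters stood in the MACROH2A2 window, and the E2F letters stood in none of the 12 windows of the 8 member genes in the promoter table. Of all 35116 promoter windows of this length, 34.6% held a CCAAT box, 15.2% a CHR, 1.15% the E2F letters and 11.5% a TATA box. Of the 12 member windows, 9 held a CCAAT box, 3 a CHR and 3 a TATA box. These matches describe the sequence and are no evidence of binding. The motifs do not overlap one another in the windows printed.

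**Figure D1:**
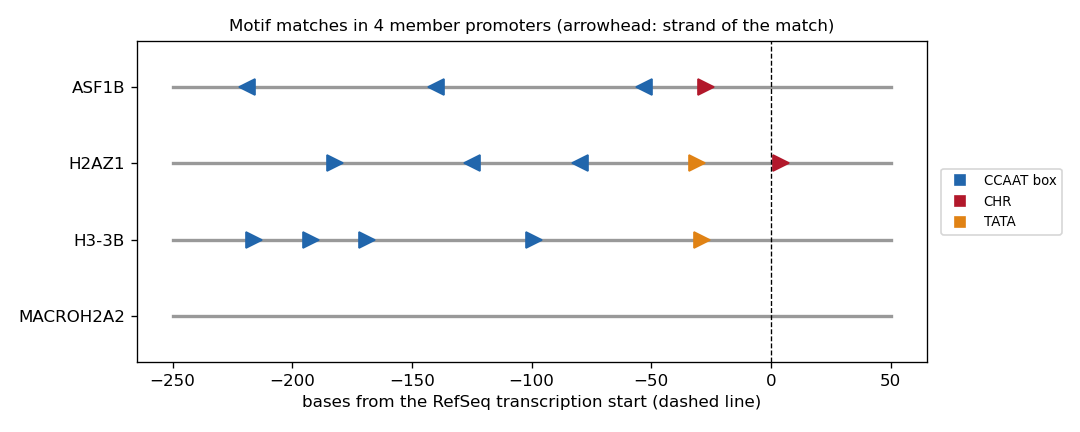
Matches to the CCAAT box, CHR and TATA box along the promoters of ASF1B, H2AZ1, H3-3B and MACROH2A2, with distance from the RefSeq start site in bases on the x axis and 1 gene per line. Arrowheads mark the left end and point along the strand of the match, and the MACROH2A2 line carries none.

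The arrays and the depletion were checked first. PPM1D, the gene of Wip1, ranged in log2 intensity from 8.69 to 8.86 in Wip1SH+ATMi, from 8.43 to 8.87 in Wip1SH, from 10.62 to 10.68 in WT+ATMi and from 10.28 to 10.43 in WT, so that every array with the hairpin lay below every array without it. Of 14 epithelial and colon markers, 8 were detected on all 12 arrays, EPCAM, KRT8, KRT19 and CDX2 among them, and 4 on none (VIL1, CDX1, LGALS4 and CEACAM5). Of 8 leukocyte markers, CD68 and HLA-DRA were detected on all 12 arrays, CD14 on 3 and 4 on none, PTPRC among them. Of 9 fibroblast and endothelial markers, COL1A1 was detected on all 12 arrays, DCN on 3 and 6 on none. The number of detected probes moved with the groups: 19505 to 20408 probes were detected in Wip1SH+ATMi, 18568 to 18961 in Wip1SH, 18723 to 19654 in WT+ATMi and 17650 to 17929 in WT. The mean signal before normalization was 694, 613, 689 and 524 in the same order.

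Of the 16 member probes, 14 were detected (detection p under 0.05) on all 12 arrays and were tested. At least 1 probe of each of the 10 genes was among them. One of the 4 MACROH2A1 probes (ILMN_2275437) and 1 of the 2 ATRX probes (ILMN_2334256) were detected on no array and were not tested. Tests compared group means of log2 intensity with limma over all 15772 detected probes that carry 1 gene symbol, and a probe is called where its Benjamini-Hochberg adjusted p over those probes is under 0.05. Differences are log2 differences ± SE, from 3 arrays a group. The comparisons share groups with one another, so their values are given side by side and are not independent. Of the 14 tested probes, 10 were called in at least 1 of the 6 comparisons, as were 57% of all probes tested.

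**Figure D2:**
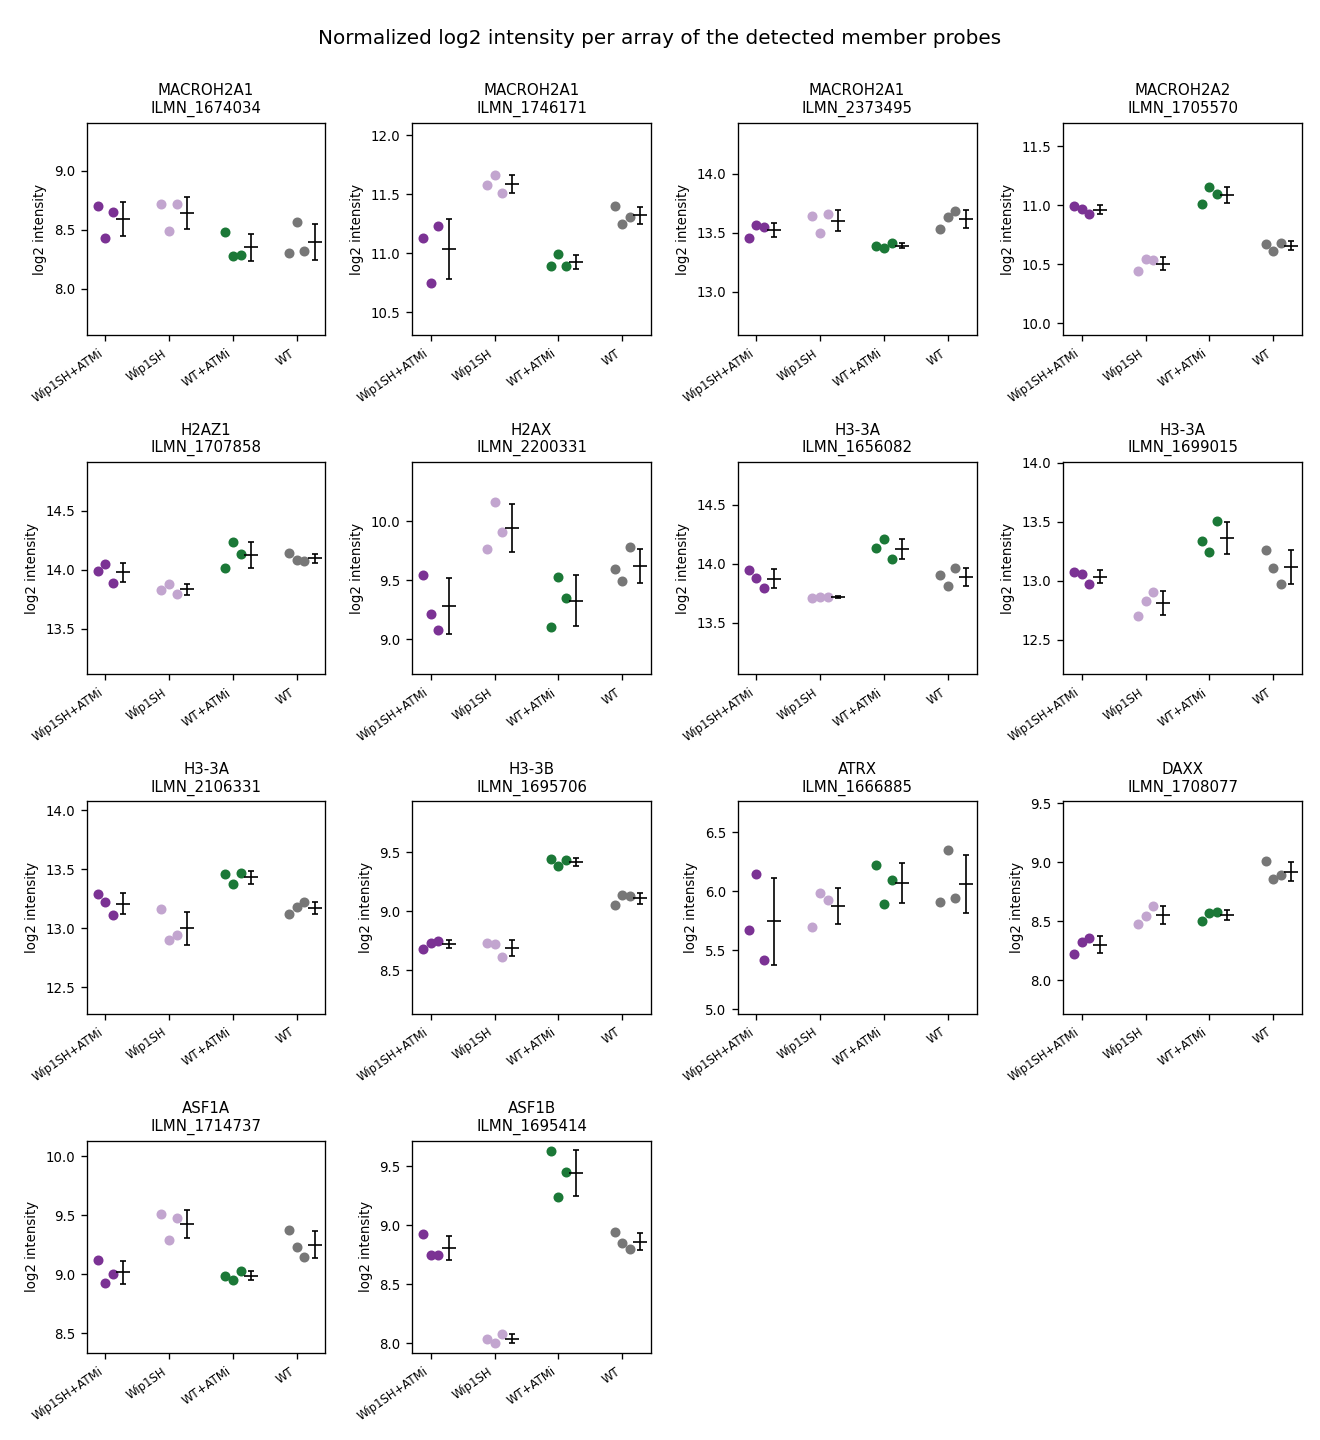
Normalized log2 intensity (y axis) of the 14 detected member probes on each of the 12 arrays, in the order Wip1SH+ATMi, Wip1SH, WT+ATMi and WT, with the group mean ± SD (n = 3) to the right of the points. Each panel has its own y scale, and levels of different probes are not comparable. For ASF1B, the Wip1SH arrays lie between 8.0 and 8.08 and the WT+ATMi arrays between 9.24 and 9.63.

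In Wip1SH cells against WT, the histone chaperone genes ASF1B and DAXX, the H3.3 gene H3-3B, 1 of 3 probes of H3-3A, and the H2A.Z gene H2AZ1 were lower. Thus 5 of the 14 member probes were called, all 5 lower and 0 higher, where 29.2% of all probes were called, 13.4% lower and 15.8% higher. The median log2 difference was -0.18 over the member probes and 0.02 over all probes tested. Under the inhibitor, in Wip1SH+ATMi against WT+ATMi, 5 probes of 4 genes were called, again all lower (ASF1B, H3-3B, DAXX and 2 of 3 H3-3A probes), where 18.3% of all probes were called, 9.32% lower and 9% higher. The median was -0.19 over the member probes and 0.01 over all. Which members were called depended on the scaling, but no called member changed sign with it in these comparisons. Every array was also given the same median over all 47323 probes, without quantile normalization. Of these probes 17650 to 20408 were detected per array, so most probes that set the median were undetected. This moved the median difference of all tested probes to 0.24 in Wip1SH against WT. There 4 member probes were called higher (MACROH2A1 ILMN_1674034 at 0.55, ILMN_1746171 at 0.52, H2AX at 0.63 and ASF1A at 0.46) and only ASF1B lower, at -0.53. Of all 15772 tested probes, 4850 were called higher and 395 lower. That scaling put the median at -0.01 in Wip1SH+ATMi against WT+ATMi and left 2 called lower, ASF1B and H3-3B, and 0 higher. Of all probes 926 were called lower there and 591 higher. With medians equal over the tested probes instead, 6 member probes were called in Wip1SH against WT and 4 in Wip1SH+ATMi against WT+ATMi, all lower. Below, equal medians are those over all probes unless stated. The arrays of the groups compared did not overlap for 8 member probes in either comparison, against 43.1% of all probes in Wip1SH against WT and 38.2% in Wip1SH+ATMi against WT+ATMi.

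In the values as deposited, the inhibitor went with both higher and lower members. In WT+ATMi against WT, MACROH2A2, ASF1B, H3-3B and 1 H3-3A probe were higher and DAXX and 1 MACROH2A1 probe lower, so that 6 of 14 probes were called, against 23% of all probes (13.4% higher and 9.61% lower). In Wip1SH+ATMi against Wip1SH, MACROH2A2 and ASF1B were higher and H2AX, DAXX, ASF1A and the same MACROH2A1 probe lower, again 6 of 14, against 20.6% of all probes (11.5% higher and 9.12% lower). The member medians were 0.02 and -0.01, against 0.02 and 0.00 over all probes. Under the scaling to equal medians over all probes, the tested probes had median differences of 0.41 and 0.13. In WT+ATMi against WT 8 member probes were then called higher and 0 lower, where 8682 of all 15772 probes were called higher and 199 lower. In Wip1SH+ATMi against Wip1SH 4 were called higher and 1 lower (H2AX), where 2195 of all probes were called higher and 389 lower. When detected probe number was added to the limma model as a covariate, 0 of 14 member probes were called in either inhibitor comparison, and 21 and 156 of all 15772 probes were. The differences themselves moved unequally in WT+ATMi against WT and in Wip1SH+ATMi against Wip1SH: MACROH2A2 stood at 0.57 and 0.56 with the covariate (0.43 and 0.46 without it), ASF1B at 0.45 and 0.68 (0.57 and 0.77) and MACROH2A1 ILMN_1746171 at -0.40 and -0.55, as without it, while H2AX stood at 0.26 and -0.25 (-0.29 and -0.67). The SE was larger with the covariate, for instance 0.15 and 0.12 for MACROH2A2 against 0.07 without it. In Wip1SH against WT and in Wip1SH+ATMi against WT+ATMi the same covariate left ASF1B and H3-3B called. In WT+ATMi against WT, 9 of the 14 member probes had groups that did not overlap (40% of all probes), and in Wip1SH+ATMi against Wip1SH likewise 9 (38.9%).

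In Wip1SH+ATMi against WT, 3 of 14 probes were called, MACROH2A2 as higher and DAXX and H3-3B as lower, against 38% of all probes (21.2% higher and 16.8% lower), and 6 of 14 did not overlap, against 47.9%. With equal medians over all probes 5 were called higher and 0 lower, where 7882 of all 15772 probes were called higher and 497 lower. The interaction asks whether the inhibitor's difference was another in depleted than in parental cells. It was called for 0 of the 14 by limma, against 2.57% of all probes.

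**Figure D3:**
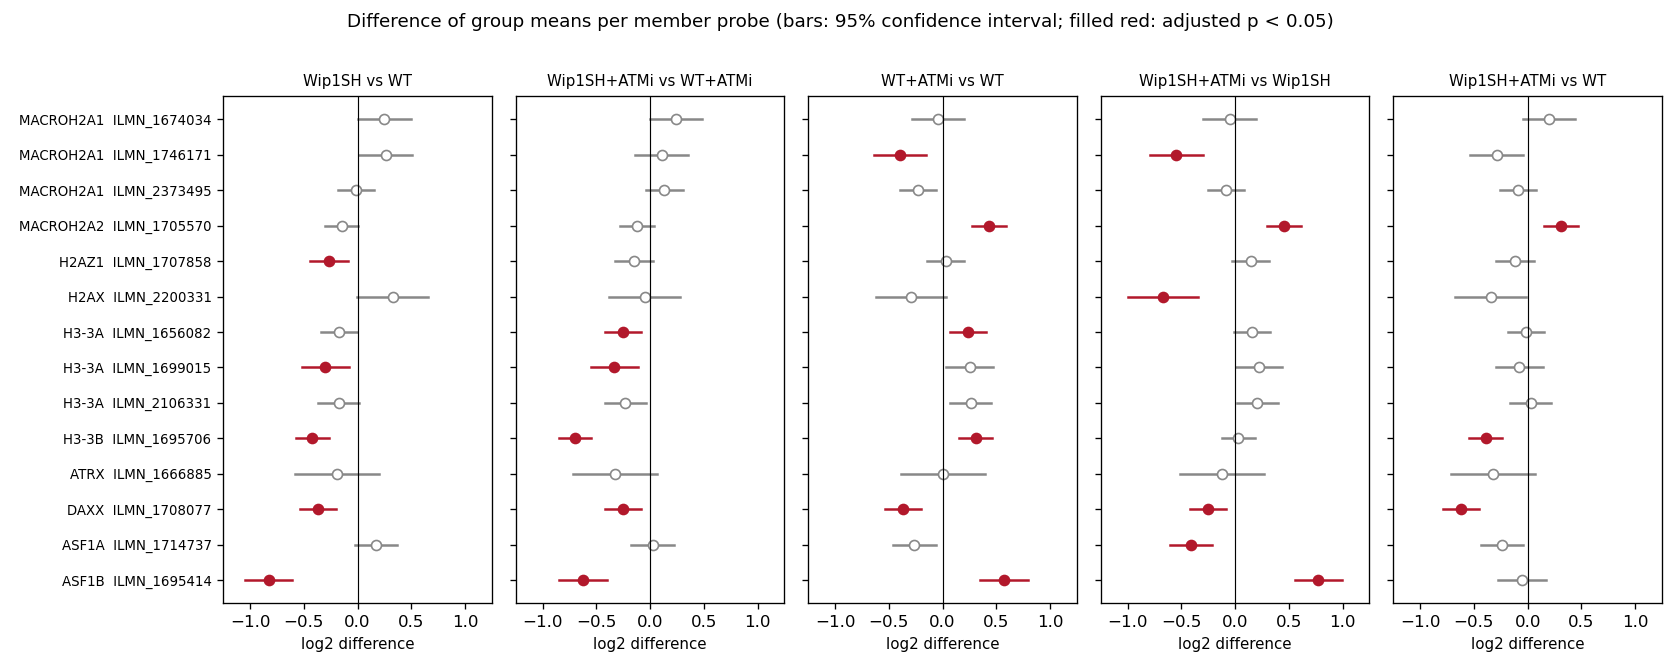
Log2 difference of group means (x axis) for each of the 14 tested member probes (rows) in 5 comparisons (panels), with its 95% confidence interval. Filled red points have an adjusted p under 0.05, of which there are 5, 5, 6, 6 and 3 from left to right.

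MACROH2A1 was read by 3 detected probes that did not move alike. Probe ILMN_1746171 had log2 intensities of 11.13, 10.75 and 11.23 in Wip1SH+ATMi, 11.58, 11.66 and 11.51 in Wip1SH, 10.89, 10.99 and 10.89 in WT+ATMi, and 11.40, 11.25 and 11.31 in WT. In each line all inhibitor arrays lay below all arrays without it. The probe fell by 0.55 ± 0.11 in Wip1SH+ATMi against Wip1SH (1.46-fold lower, adjusted p = 0.0063, limma) and by 0.40 ± 0.11 in WT+ATMi against WT (1.32-fold lower, adjusted p = 0.0257). The second of these calls was lost without WT replicate 1 or 3 or WT+ATMi replicate 1 or 3 (adjusted p 0.0539 to 0.0784). Under the scaling to equal medians the probe stood at 0.0457 in WT+ATMi against WT, which is -0.36 relative to the median of all tested probes, and its call in Wip1SH+ATMi against Wip1SH was lost.

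The brightest MACROH2A1 probe, ILMN_2373495, had 13.45, 13.56 and 13.55 in Wip1SH+ATMi, 13.64, 13.50 and 13.66 in Wip1SH, 13.39, 13.37 and 13.41 in WT+ATMi, and 13.53, 13.63 and 13.68 in WT. Its WT+ATMi arrays lay below its WT arrays, and its depleted groups overlapped. The difference was -0.23 ± 0.08 in WT+ATMi against WT (adjusted p = 0.0526, and 0.0487 without WT replicate 1) and -0.08 ± 0.08 in Wip1SH+ATMi against Wip1SH (adjusted p = 0.501). The third probe, ILMN_1674034, had 8.70, 8.43 and 8.65 in Wip1SH+ATMi, 8.72, 8.49 and 8.72 in Wip1SH, 8.48, 8.28 and 8.29 in WT+ATMi, and 8.30, 8.57 and 8.32 in WT. Its inhibitor differences were -0.05 ± 0.11 in both lines. Which splice form each probe reads was not determined, and the difference between the probes was not tested.

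On depletion, none of the MACROH2A1 probes was called. In Wip1SH against WT the differences were 0.26 ± 0.11 for ILMN_1746171 (adjusted p = 0.102, and 0.0282 without Wip1SH+ATMi replicate 2), 0.25 ± 0.11 for ILMN_1674034 (adjusted p = 0.113) and -0.01 ± 0.08 for ILMN_2373495 (adjusted p = 0.932). All 3 Wip1SH arrays lay above all WT arrays only for the first of these probes, and both other probes overlapped. In Wip1SH+ATMi against WT+ATMi the differences were 0.11 ± 0.11, 0.24 ± 0.11 and 0.13 ± 0.08 in the same order. Their adjusted p by limma was 0.55, 0.153 and 0.258. There the arrays of ILMN_2373495 alone did not overlap, with Wip1SH+ATMi higher.

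In the values as deposited, ILMN_1746171 was the only detected MACROH2A1 probe called with the inhibitor, as lower. MACROH2A2, the paralogue, was called higher with the inhibitor in both lines, and the difference between the paralogues was not tested. Its single probe had 10.99, 10.97 and 10.92 in Wip1SH+ATMi, 10.44, 10.54 and 10.53 in Wip1SH, 11.01, 11.15 and 11.09 in WT+ATMi, and 10.67, 10.61 and 10.68 in WT. Every inhibitor array lay above every array without it. The probe rose by 0.46 ± 0.07 in Wip1SH+ATMi against Wip1SH (1.37-fold, adjusted p = 0.0015) and by 0.43 ± 0.07 in WT+ATMi against WT (1.35-fold, adjusted p = 0.00181). The interaction was 0.02 ± 0.10, with a 95% interval of -0.20 to 0.25. Wip1SH+ATMi against WT also gave a rise, of 0.31 ± 0.07 (adjusted p = 0.00559). On depletion the differences were -0.15 ± 0.07 in Wip1SH against WT and -0.12 ± 0.07 in Wip1SH+ATMi against WT+ATMi, with adjusted p of 0.141 and 0.261.

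H2AZ1, which encodes the main H2A.Z protein, had 13.99, 14.05 and 13.89 in Wip1SH+ATMi, 13.83, 13.88 and 13.79 in Wip1SH, 14.01, 14.23 and 14.13 in WT+ATMi, and 14.14, 14.08 and 14.07 in WT. The Wip1SH arrays were the lowest of the 4 groups and did not overlap the WT arrays. The transcript fell by 0.26 ± 0.08 in Wip1SH against WT (1.20-fold lower, adjusted p = 0.0288). This call was lost without any 1 WT replicate and without Wip1SH replicate 1 or 3 (adjusted p 0.0539 to 0.0865), and under the scaling to equal medians. The other differences were smaller and not called, with -0.15 ± 0.08 for Wip1SH+ATMi against WT+ATMi, 0.03 ± 0.08 for WT+ATMi against WT and 0.14 ± 0.08 for Wip1SH+ATMi against Wip1SH.

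H2AX had 9.54, 9.21 and 9.08 in Wip1SH+ATMi, 9.76, 10.16 and 9.91 in Wip1SH, 9.10, 9.53 and 9.35 in WT+ATMi, and 9.59, 9.49 and 9.78 in WT. The Wip1SH arrays were highest except that Wip1SH replicate 1 lay just below WT replicate 3. The transcript fell by 0.67 ± 0.15 in Wip1SH+ATMi against Wip1SH (1.59-fold lower, adjusted p = 0.00939) and was at -0.29 ± 0.15 in WT+ATMi against WT (adjusted p = 0.18). The difference between those values is the interaction, -0.38 ± 0.21 (adjusted p = 0.39), so a larger response in depleted cells was not shown. Wip1SH against WT gave 0.33 ± 0.15 (adjusted p = 0.123). The array measures the H2AX transcript and not the phosphorylated protein.

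H3-3A and H3-3B encode the same H3.3 protein from separate genes. H3-3B had 8.68, 8.73 and 8.75 in Wip1SH+ATMi, 8.73, 8.72 and 8.61 in Wip1SH, 9.44, 9.38 and 9.43 in WT+ATMi, and 9.05, 9.14 and 9.13 in WT. All 6 depleted arrays lay below all 6 parental arrays, and among the parental arrays those with the inhibitor were higher. The transcript fell by 0.70 ± 0.07 in Wip1SH+ATMi against WT+ATMi (1.62-fold lower, adjusted p = 8.46e-05) and by 0.42 ± 0.07 in Wip1SH against WT (1.34-fold lower, adjusted p = 0.00138). It rose by 0.31 ± 0.07 in WT+ATMi against WT (adjusted p = 0.00933) and had 0.03 ± 0.07 in Wip1SH+ATMi against Wip1SH (adjusted p = 0.808). The interaction was -0.28 ± 0.10, with a 95% interval of -0.50 to -0.06, an unadjusted p of 0.0161 by limma and an adjusted p of 0.169. Wip1SH+ATMi against WT gave a fall of 0.39 ± 0.07 (adjusted p = 0.00123), which under the scaling to equal medians became 0.0784, or -0.29 relative to the median of all probes. The same scaling ended the H3-3B call in Wip1SH against WT, where the value relative to the median was -0.36.

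The 3 H3-3A probes pointed the same way as one another. Probe ILMN_1656082 had 13.95, 13.88 and 13.79 in Wip1SH+ATMi, 13.71, 13.72 and 13.72 in Wip1SH, 14.13, 14.21 and 14.04 in WT+ATMi, and 13.90, 13.81 and 13.96 in WT. Probe ILMN_1699015 had 13.07, 13.06 and 12.97 in Wip1SH+ATMi, 12.70, 12.83 and 12.90 in Wip1SH, 13.34, 13.24 and 13.51 in WT+ATMi, and 13.26, 13.11 and 12.97 in WT. Probe ILMN_2106331 ranged from 13.11 to 13.29 in Wip1SH+ATMi, from 12.90 to 13.16 in Wip1SH, from 13.37 to 13.47 in WT+ATMi and from 13.12 to 13.22 in WT. For each probe WT+ATMi had the highest mean and Wip1SH the lowest, a small range that the test resolved for some probes only.

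In Wip1SH against WT the H3-3A differences were -0.30 ± 0.10 (ILMN_1699015, adjusted p = 0.0405), -0.17 ± 0.08 (ILMN_1656082, adjusted p = 0.114) and -0.18 ± 0.09 (ILMN_2106331, adjusted p = 0.15). In Wip1SH+ATMi against WT+ATMi they were -0.33 ± 0.10 (adjusted p = 0.0385), -0.25 ± 0.08 (adjusted p = 0.0433) and -0.23 ± 0.09 (adjusted p = 0.0897) in the same order. In WT+ATMi against WT they were 0.25 ± 0.10 (adjusted p = 0.0894), 0.24 ± 0.08 (adjusted p = 0.0481) and 0.26 ± 0.09 (adjusted p = 0.051, and 0.0375 without Wip1SH replicate 1). All 4 H3-3A calls stood close to the threshold. That of ILMN_1656082 with the inhibitor was lost without any 1 of the 12 arrays (adjusted p 0.0508 to 0.141), and its call in Wip1SH+ATMi against WT+ATMi without any array but WT replicates 2 and 3 (0.0516 to 0.138). The calls of ILMN_1699015 were lost in Wip1SH against WT without WT replicates 1 or 2, any Wip1SH array, WT+ATMi replicate 1 or Wip1SH+ATMi replicate 1 (0.0502 to 0.137), and in Wip1SH+ATMi against WT+ATMi without WT+ATMi replicates 1 or 3, Wip1SH replicate 2 or any Wip1SH+ATMi array (0.0503 to 0.141). H3.3 has processed pseudogenes of similar sequence, and cross-hybridisation of these probes was not tested.

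DAXX, the H3.3 chaperone, was lowest where depletion and inhibitor were combined. It had 8.22, 8.32 and 8.36 in Wip1SH+ATMi, 8.48, 8.54 and 8.63 in Wip1SH, 8.50, 8.57 and 8.58 in WT+ATMi, and 9.01, 8.86 and 8.89 in WT. The Wip1SH and WT+ATMi arrays overlapped each other and lay wholly between the other groups. The fall was 0.62 ± 0.08 in Wip1SH+ATMi against WT (1.54-fold lower, adjusted p = 0.000115), 0.37 ± 0.08 in Wip1SH against WT (adjusted p = 0.00485) and 0.37 ± 0.08 in WT+ATMi against WT (adjusted p = 0.00603). The interaction was 0.12 ± 0.11 (95% interval -0.12 to 0.36, adjusted p = 0.613). Detected probe number ran opposite to DAXX, being highest in Wip1SH+ATMi and lowest in WT, and with it as a covariate none of the DAXX calls was kept (adjusted p 0.0866 to 0.317). The differences were no smaller then, at -0.69 in Wip1SH+ATMi against WT, -0.40 in Wip1SH against WT and -0.42 in WT+ATMi against WT, while the SE was larger (0.13 to 0.22 in these comparisons, against 0.08).

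DAXX also passed in the comparisons against the singly changed groups, with -0.25 ± 0.08 in Wip1SH+ATMi against Wip1SH (adjusted p = 0.0403) and -0.25 ± 0.08 in Wip1SH+ATMi against WT+ATMi (adjusted p = 0.0435). The first call was lost without any 1 array other than those of WT (adjusted p 0.0511 to 0.129), and the second without any 1 array other than WT replicate 1 (0.0504 to 0.135). Under the scaling to equal medians every DAXX call was lost, and the difference in WT+ATMi against WT turned to 0.12, which is -0.29 relative to the median of all probes.

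ATRX, the remodeller that partners DAXX, was dim. Its detected probe had 5.67, 6.15 and 5.42 in Wip1SH+ATMi, 5.70, 5.99 and 5.93 in Wip1SH, 6.22, 5.89 and 6.10 in WT+ATMi, and 5.91, 6.35 and 5.94 in WT, and all 4 groups overlapped. No comparison was called, with adjusted p of 0.182 to 0.994 outside the interaction. The 95% intervals left room for changes of some size, for instance -0.71 to 0.07 in Wip1SH+ATMi against WT, where the difference was -0.32 ± 0.18 (adjusted p = 0.0288 at -0.52 without Wip1SH+ATMi replicate 2).

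The ASF1 paralogues differed in their patterns. ASF1B had 8.93, 8.75 and 8.75 in Wip1SH+ATMi, 8.04, 8.0 and 8.08 in Wip1SH, 9.63, 9.24 and 9.45 in WT+ATMi, and 8.94, 8.85 and 8.80 in WT. Wip1SH lay below and WT+ATMi above all other arrays, and Wip1SH+ATMi overlapped WT. On depletion ASF1B fell by 0.83 ± 0.10 in Wip1SH against WT (1.78-fold lower, adjusted p = 0.00021) and by 0.63 ± 0.10 in Wip1SH+ATMi against WT+ATMi (1.54-fold lower, adjusted p = 0.00162). With the inhibitor it rose by 0.77 ± 0.10 in Wip1SH+ATMi against Wip1SH (1.71-fold, adjusted p = 0.000554) and by 0.57 ± 0.10 in WT+ATMi against WT (1.49-fold, adjusted p = 0.00262). Wip1SH+ATMi against WT gave -0.05 ± 0.10 (95% interval -0.28 to 0.18, adjusted p = 0.708). These were the largest differences among the member probes in Wip1SH against WT and in both inhibitor comparisons.

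ASF1A had 9.12, 8.93 and 9.0 in Wip1SH+ATMi, 9.51, 9.29 and 9.48 in Wip1SH, 8.99, 8.95 and 9.03 in WT+ATMi, and 9.38, 9.23 and 9.15 in WT. The arrays with the inhibitor all lay below those without it. The transcript fell by 0.41 ± 0.09 in Wip1SH+ATMi against Wip1SH (1.33-fold lower, adjusted p = 0.00904) and was at -0.26 ± 0.09 in WT+ATMi against WT (adjusted p = 0.0575, and 0.0499 without Wip1SH replicate 2). The call was lost under the scaling to equal medians. On depletion it had 0.17 ± 0.09 in Wip1SH against WT (adjusted p = 0.178) and 0.02 ± 0.09 in Wip1SH+ATMi against WT+ATMi (adjusted p = 0.894). The difference between ASF1A and ASF1B was not tested.

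Other genes of variant deposition were counted from lists set with earlier results of these data known, each gene by its brightest tested probe. Of all probes tested, 29.2% were called in Wip1SH against WT, 23% in WT+ATMi against WT and 20.6% in Wip1SH+ATMi against Wip1SH. Of 20 other histone chaperones and partners, 19 were tested, and in Wip1SH against WT 7 fell and 2 rose, with a median of -0.22. CHAF1A, the large subunit of CAF-1, fell by 0.68 ± 0.12 (adjusted p = 0.00201), MCM2, a helicase subunit that binds H3 and H4, by 0.79 ± 0.11, and TONSL, a reader of new histones, by 0.75 ± 0.11, while TLK1, a kinase of ASF1, rose by 0.50 ± 0.08. In Wip1SH+ATMi against Wip1SH 8 rose and 1 fell, with a median of 0.12. CHAF1A rose by 0.68 ± 0.12, MCM2 by 0.57 ± 0.11 and TLK1 by 0.40 ± 0.08, and IPO4, an importin that carries H3 and H4, fell by 0.55 ± 0.10. In WT+ATMi against WT 4 rose and 2 fell, among them IPO4, which fell by 0.70 ± 0.10, and TLK1, which rose by 0.51 ± 0.08. With equal medians over all probes the list had 3 lower and 4 higher in Wip1SH against WT, 8 higher and 1 lower in Wip1SH+ATMi against Wip1SH, and 13 higher and 0 lower in WT+ATMi against WT. Of all 15772 probes that scaling called 4850 higher and 395 lower, 2195 and 389, and 8682 and 199, in that order.

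The other H3.3 chaperones and partners were 5 genes (HIRA, UBN1, UBN2, CABIN1 and DEK, all tested). CABIN1, a subunit of the HIRA complex, fell by 0.55 ± 0.12 in Wip1SH against WT and rose by 0.44 ± 0.12 in Wip1SH+ATMi against Wip1SH and by 0.39 ± 0.12 in WT+ATMi against WT. DEK, an H3.3 chaperone, rose by 0.38 ± 0.10 in Wip1SH+ATMi against Wip1SH, and these were the only calls of the list in the 3 comparisons. Of 13 H2A.Z exchange and removal factors, 1 rose and 2 fell in Wip1SH against WT, 1 rose and 1 fell in WT+ATMi against WT, and 1 rose in Wip1SH+ATMi against Wip1SH. EP400, the ATPase of the p400 complex, rose by 0.79 ± 0.08 in WT+ATMi against WT and by 0.42 ± 0.08 in Wip1SH+ATMi against Wip1SH, and RUVBL1, a helicase-like subunit shared by these complexes, fell by 0.35 ± 0.10 in Wip1SH against WT and by 0.37 ± 0.10 in WT+ATMi against WT. Of 5 tested other histone variants, H2AJ rose by 0.55 ± 0.11 and CENPA, the centromeric H3, fell by 0.38 ± 0.12 in Wip1SH against WT. H3-5 rose by 0.28 ± 0.09 in Wip1SH+ATMi against Wip1SH and had -0.02 ± 0.09 in Wip1SH against WT. In WT+ATMi against WT 0 of these variants were called. With equal medians over all probes none of the genes of these 3 lists was called lower in the 3 comparisons. Of all 15772 probes, 395 were called lower in Wip1SH against WT, 199 in WT+ATMi against WT and 389 in Wip1SH+ATMi against Wip1SH. Called higher were 1 gene of the H3.3 list, 2 of the H2A.Z list and 2 of the variant list in Wip1SH against WT. In WT+ATMi against WT they were 4, 10 and 5, and in Wip1SH+ATMi against Wip1SH 3, 1 and 0. That scaling called 4850, 8682 and 2195 of all 15772 probes higher in these comparisons, in that order.

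Replication genes moved beside ASF1B in some comparisons. Of 32 tested DNA replication genes, 16 fell and 0 rose in Wip1SH against WT (median -0.28), 12 rose and 0 fell in Wip1SH+ATMi against Wip1SH (median 0.21), and 1 rose and 0 fell in WT+ATMi against WT (median 0.08), where ASF1B was 0.57 higher. Of 20 mitosis genes, 16 fell and 0 rose in Wip1SH against WT (median -0.57), 2 rose and 1 fell in Wip1SH+ATMi against Wip1SH (median 0.10), and 3 fell and 0 rose in WT+ATMi against WT (median -0.04). With equal medians over all probes the replication list had 6 lower and 0 higher in Wip1SH against WT, 13 higher and 0 lower in Wip1SH+ATMi against Wip1SH and 27 higher and 0 lower in WT+ATMi against WT, and the mitosis list 6 lower, 2 higher and 15 higher in that order with 0 the other way. Of all 15772 probes that scaling called 395 lower and 4850 higher, 389 and 2195, and 199 and 8682, in the same order. The part of cell cycle distribution in the ASF1B, H2AZ1 and H3.3 values was not tested, and in bulk RNA fewer cells in a phase and less RNA per cell cannot be told apart.

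**Figure D4:**
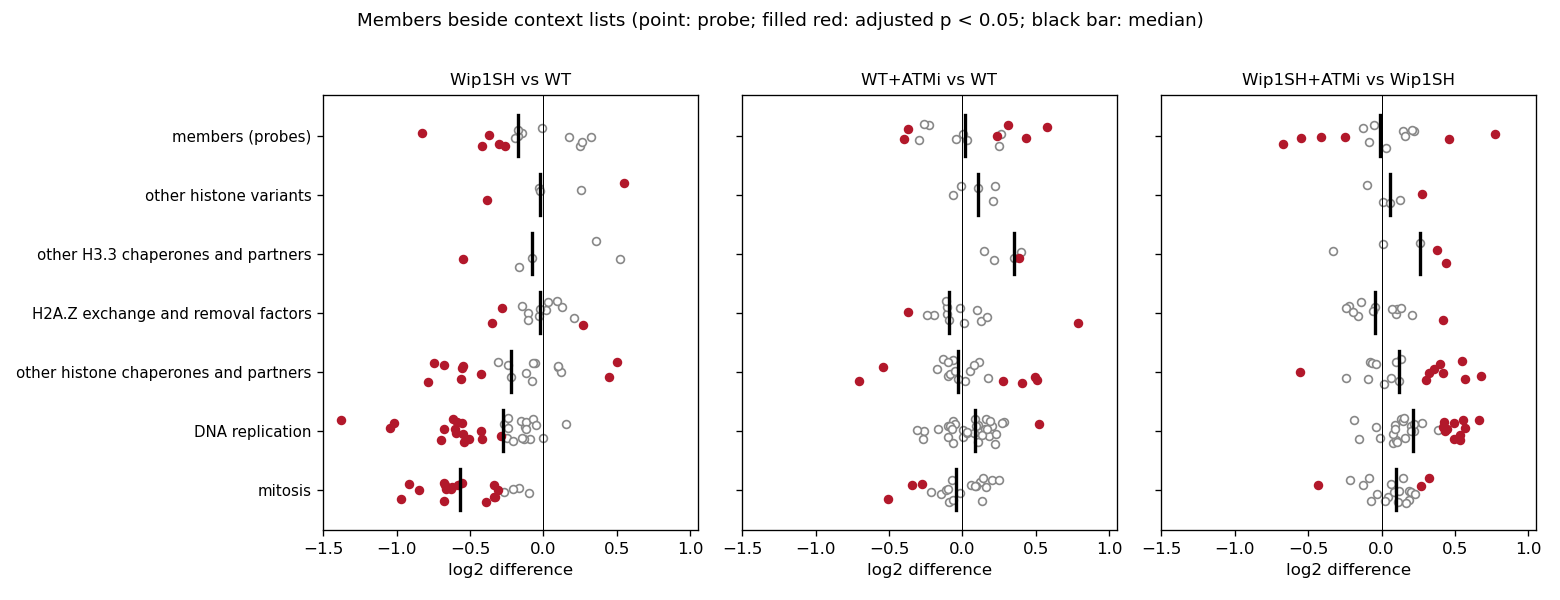
Log2 differences (x axis) of the member probes (top line) and of the genes of 6 lists in Wip1SH against WT, WT+ATMi against WT and Wip1SH+ATMi against Wip1SH. Filled red points have an adjusted p under 0.05 and the black bar is the median, which for the DNA replication list lies at -0.28, 0.08 and 0.21.

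The genes whose log2 values ran most like those of a member over the 12 arrays were found by Pearson's r, as a description with no test, since all arrays share the 4 group differences. For H3-3B they were AXIN2, a feedback inhibitor of Wnt signalling (r = 0.989), the homeobox gene MSX1 (0.989) and PODXL (0.978). For MACROH2A2 they were PDE6D (0.980), HSP90AA1, a cytosolic chaperone (0.979), and ZIC2 (0.973). For DAXX they were the nucleolar protein genes NOLC1 (0.969) and NOP16 (0.968) and PRPS1 (0.965), an enzyme of nucleotide synthesis. For ASF1B they were HBE1 (0.980), CUEDC1 (0.976) and CFD (0.974), none of which is on the replication list.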

How the data were processed

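Total RNA from 12 HCT116 cultures, described in the series' design text as biological replicates, was made into biotin-labelled cRNA, per the labels' protocols, and read on 1-colour Illumina bead arrays. Signals were deposited as linear intensity, not normalized, per the file headers. Each has a detection p-value, also per the file headers. A table of log2 values was deposited as well. How the authors made it is not stated in the labels, but its values differed by at most 5e-06 from neqc (limma 3.58.1, R 4.3.3, offset 16, quantile normalization), and for the member probes by at most 4.97e-14. The log2 values as deposited were tested. Background correction and quantile normalization hide any change common to all probes.

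Probes were named from the platform annotation (30113 with 1 gene symbol, 8 with several, 17202 not named here). Those with a detection p under 0.05 on at least 3 arrays (15772) entered 1 limma fit (lmFit, eBayes) with a mean per group over all 12 arrays, with two-sided p-values adjusted by Benjamini-Hochberg within each comparison and called under 0.05. The number of arrays limits the precision, and the median SE of a difference was 0.12. The procedure was tested on simulated data. Groups came from the sample labels. Deviations of same-numbered arrays of different groups from their group means correlated at -0.08 to 0.15 (18 pairs, median 0.03). Differently numbered arrays gave -0.14 to 0.16 (36 pairs, median -0.02). The ranges overlapped, and the numbers were not used as pairs. Members, lists, motifs and naming rule were all set with earlier results of these data known. The rule gives array values for every called member probe and every detected macroH2A probe, the 3 most alike genes for called members (shown for 4), and up to 4 called genes per list by smallest adjusted p. The array values of ATRX were added after its values were seen. Gene coordinates are not given, since the files name no build. Promoters are RefSeq's (GRCh38.p14), found for 8 of the 10 genes. Alternatives were other background corrections, scalings, detection filters, 1 probe per gene, array weights, a replicate block, fits on the groups compared alone, detected probe number as a covariate, and each array left out. The scalings to equal medians used background-corrected values without quantile normalization.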

Additional observations from a re-analysis of the deposited data

How the results depend on the processing

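Of the 25 called member values, 3 kept their call in all 24 alternatives or all that applied: ASF1B in Wip1SH against WT and in Wip1SH+ATMi against WT+ATMi, and H3-3B in Wip1SH+ATMi against WT+ATMi. Of 59 values not called, 22 were called in at least 1 alternative. With each array left out, the member probes called ranged from 3 to 6 (Wip1SH against WT, 5 with all arrays), 4 to 6 (WT+ATMi against WT, 6), 5 to 6 (Wip1SH+ATMi against Wip1SH, 6), 2 to 4 (Wip1SH+ATMi against WT+ATMi, 5), 3 to 5 (Wip1SH+ATMi against WT, 3) and 0 to 0 for the interaction. With detected probes as a covariate the counts were 2, 0, 0, 2 and 0 in that order, and of all probes 907, 21, 156, 1279 and 33 were called, against 4603, 3633, 3245, 2889 and 5997, with 217 against 406 for the interaction. Without background correction 10 member probes were called in WT+ATMi against WT and 6 in Wip1SH+ATMi against WT, and 632 of all probes in the interaction. In Wip1SH+ATMi against WT+ATMi, 2 member probes were called with medians equal over all probes, with no detection filter, with only the groups compared and with the replicate block. Among the other member counts the replicate block, tried because groups share replicate numbers, moved none by over 1.5 times, and it lowered the interaction calls of all probes to 295. In Wip1SH+ATMi against WT, 5 were called with medians equal over all or over the tested probes and with the stricter filter.

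Equal medians over all probes moved the median of the tested probes to 0.24, 0.41, 0.13, -0.01, 0.37 and -0.28 in the 6 comparisons, and split the calls of WT+ATMi against WT into 8682 higher and 199 lower (2117 and 1516 as deposited), of Wip1SH against WT into 4850 and 395 (2486 and 2117), of Wip1SH+ATMi against Wip1SH into 2195 and 389 (1807 and 1438), of Wip1SH+ATMi against WT+ATMi into 591 and 926 (1419 and 1470), of Wip1SH+ATMi against WT into 7882 and 497 (3344 and 2653) and of the interaction into 9 and 301 (234 and 172). Medians equal over the tested probes gave 1639 and 2598 in WT+ATMi against WT, 2847 and 3625 in Wip1SH+ATMi against WT and 320 and 119 in the interaction. With that scaling 6 of the 84 member values changed sign, none of them called under either setting. Under equal medians over all probes, 26 of the 84 member values changed sign, 6 of them called under either setting: MACROH2A1 ILMN_1746171 (0.0457), MACROH2A1 ILMN_1674034 (0.44) and DAXX (0.12) in WT+ATMi against WT, and H3-3B (0.0784), H3-3A ILMN_1656082 (0.38) and ASF1B (0.41) in Wip1SH+ATMi against WT. The cause was not tested. Without WT+ATMi replicate 3, 2403 probes were called in WT+ATMi against WT, and without Wip1SH replicate 2, 2127 in Wip1SH+ATMi against Wip1SH; the interaction had 160 to 347 with 1 array left out.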
